A study of Sus scrofa with 23 samples.

Results

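The podocyte slit diaphragm genes described here are 8 genes (NPHS1, PODXL, WT1, SYNPO, PTPRO, CD2AP, PLCE1 and TRPC6) of the 26687 genes measured. They were chosen by symbol from the authors' table that assigns transcripts to genes, and each gene's value is the sum of the estimated counts of its transcripts. All 8 passed the filter on low counts, which 20921 genes passed in the comparison of CF with non-CF. RNA of the kidney cortex was sequenced from 23 newborn pigs, 1 library per pig. The libraries carry the labels CF (genotype CFTR-/-, n = 11), HET (CFTR+/-, n = 6) and WT (Wild-type, n = 6), and the HET and WT libraries together form the group non-CF (n = 12). The labels name no treatment, and piglets with 2 disrupted CFTR alleles came from matings of heterozygous pigs. The libraries held 32901281 to 52952273 estimated counts.

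Podocytes are the epithelial cells that cover the outside of the glomerular capillaries. Their foot processes interlock, and the gap between neighbouring processes is bridged by the slit diaphragm, a protein sheet that filters plasma by size and that is built around nephrin. In the newborn pig, new glomeruli still form at the outer edge of the cortex, so a piece of cortex holds mature podocytes beside developing ones. In whole tissue, fewer podocytes and less RNA per podocyte cannot be told apart.

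The targeted gene went against its labels. CFTR was counted 60 to 178 times in the WT libraries, 442 to 699 times in the HET libraries and 614 to 1040 times in the CF libraries, so its RNA was higher with more disrupted alleles, and the groups below are those of the labels. A second division runs across the labels. Pigs numbered 1 to 6 and 12 to 18 (13 libraries, the earlier-numbered pigs) lay apart from pigs numbered 7 to 11 and 19 to 23 (10 libraries, the later-numbered pigs) on the second axis of a scaling plot of these same data. On its first axis 10 libraries (CF2, CF3, CF6, CF8, CF10, HET14, WT16, WT18, WT22 and WT23), from every label and both sets, lay at -0.451 or below and the other 13 at 0.191 or above. The part of that division in the members' values was not tested. The labels name no batch. The earlier-numbered pigs comprised 6 CF, 3 HET and 4 WT libraries and the later-numbered pigs 5 CF, 3 HET and 2 WT, so the comparison of CF with non-CF was also made within each set.

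The starts of 4 of these genes are shown because WT1 and PTPRO were the members whose RNA levels followed that of NPHS1 most closely among libraries, while the level of SYNPO did not follow that of NPHS1. Each sequence runs 5′ to 3′ on the gene's own strand from 250 bases before to 50 bases after the annotated gene start, read from the RefSeq annotation and genome Sscrofa11.1. The windows are chr6:45271843-45272142 (minus strand) for NPHS1, chr2:28411217-28411516 (plus strand) for WT1, chr5:57263346-57263645 (minus strand) for PTPRO and chr2:151571014-151571313 (plus strand) for SYNPO. Capitals mark matches to motifs of podocyte transcription factors.
NPHS1: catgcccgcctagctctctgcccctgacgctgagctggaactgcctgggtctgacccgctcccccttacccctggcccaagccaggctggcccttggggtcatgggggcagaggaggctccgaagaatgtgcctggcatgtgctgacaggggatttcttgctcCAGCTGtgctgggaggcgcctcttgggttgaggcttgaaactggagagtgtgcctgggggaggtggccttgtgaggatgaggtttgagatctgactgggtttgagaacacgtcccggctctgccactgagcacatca
WT1: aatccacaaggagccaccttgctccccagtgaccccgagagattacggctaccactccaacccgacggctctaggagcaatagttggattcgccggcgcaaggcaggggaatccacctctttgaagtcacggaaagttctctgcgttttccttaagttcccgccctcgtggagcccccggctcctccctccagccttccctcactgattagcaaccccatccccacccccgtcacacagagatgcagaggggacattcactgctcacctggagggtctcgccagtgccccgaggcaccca
PTPRO: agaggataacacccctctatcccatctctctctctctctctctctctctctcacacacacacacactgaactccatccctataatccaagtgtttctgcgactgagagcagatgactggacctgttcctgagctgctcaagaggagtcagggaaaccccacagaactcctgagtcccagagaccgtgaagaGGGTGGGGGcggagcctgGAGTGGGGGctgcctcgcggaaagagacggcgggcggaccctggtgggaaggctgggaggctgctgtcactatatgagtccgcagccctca
SYNPO: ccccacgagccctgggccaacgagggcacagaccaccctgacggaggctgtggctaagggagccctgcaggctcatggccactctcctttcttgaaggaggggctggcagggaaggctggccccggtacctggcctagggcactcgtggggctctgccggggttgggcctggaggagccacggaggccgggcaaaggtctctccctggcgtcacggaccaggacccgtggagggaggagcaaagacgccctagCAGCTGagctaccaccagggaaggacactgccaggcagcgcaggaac

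The motifs searched, on both strands, were GNGTGGGNG for WT1, TAATTA for LMX1B, TGTTTAC for FOXC factors and CAGCTG for TCF21. None contains another. Among 20653 promoters of protein-coding genes these occurred in 16.8%, 4.47%, 2.68% and 16.3%. The NPHS1 window held a TCF21 match starting at -87 from the gene start. The PTPRO window held 2 WT1 matches, at -59 and -41, and the SYNPO window a TCF21 match at +4. The WT1 window held no match to these letters. Of the other members, PODXL held 1 WT1 match, CD2AP 2 TCF21 matches, and PLCE1 and TRPC6 none. A match describes the letters and is no evidence of binding.

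The members differed widely in level. On the TPM scale, which divides by transcript length and so allows genes to be compared, the median over the 23 libraries was 98.5 for PODXL, 61.7 for CD2AP, 29.5 for WT1, 18.5 for PTPRO, 10.1 for PLCE1, 8.14 for NPHS1, 5.88 for SYNPO and 1.18 for TRPC6. This order was steady: PODXL was above CD2AP in 22 of 23 libraries, and CD2AP above WT1, WT1 above PTPRO, PTPRO above PLCE1 and SYNPO above TRPC6 in all 23. The neighbours that changed places more often were PLCE1 and NPHS1 (PLCE1 higher in 21 of 23) and NPHS1 and SYNPO (NPHS1 higher in 19 of 23). The TPM of CD2AP rests on how counts were assigned to its transcripts, with a median of 79.1% on one of 1926 bases. Every member was counted in every library. TRPC6 rested on 121 to 383 counts per library, the fewest of the members.

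NPHS1 encodes nephrin, the adhesion protein that spans the slit. The gene lies at chr6:45248325-45271892 on the minus strand, with 29 exons and a single annotated transcript. Its level, as counts per 1000000 scaled by TMM (CPM), was 24.2 at lowest, 37.9 at the median and 46.8 at highest in the CF libraries. In the HET libraries these values were 29.2, 35.9 and 40.9, and in the WT libraries 29.5, 37.9 and 45.9. The labels overlapped throughout, with 3 CF libraries below and 1 above every non-CF library. The log2 fold change of CF against non-CF was -0.03 (SE 0.108, 95% interval -0.25 to 0.19, edgeR adjusted p = 0.953).

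PODXL encodes podocalyxin, the charged sialoprotein that keeps foot processes apart, and podocalyxin is also made by endothelium. It lies at chr18:17444339-17494507, on the chromosome that also carries CFTR, and its last bases overlap MKLN1 on the opposite strand. Its CPM was 411 at lowest, 516 at the median and 790.4 at highest in CF, 415, 483 and 622 in HET, and 390.0, 508 and 628 in WT. The highest CF libraries, CF1 (790.4) and CF7 (706), exceeded every non-CF library and the rest lay within their range. CF against non-CF gave a log2 fold change of 0.14 (SE 0.10, interval -0.07 to 0.34, edgeR adjusted p = 0.603).

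WT1 encodes a zinc finger transcription factor needed for podocyte identity, and is also made by nephron progenitors. It lies at chr2:28411467-28456007 on the plus strand, and its first bases overlap the lncRNA LOC102161978 on the opposite strand. The authors' library kit keeps strand, but whether the pseudoalignment used it is not given in the sources used here. CPM was 67.6 at lowest, 103 at the median and 129 at highest in CF, 84.6, 97.3 and 117 in HET, and 83.3, 93.0 and 121 in WT. On the log2 scale CF differed from non-CF by -0.01 (SE 0.0888, interval -0.20 to 0.17, edgeR adjusted p = 0.973). Of its 5 annotated transcripts, XM_013994456.2 held a median of 51.9% of the TPM of the gene and XM_021081119.1 was listed at 0 in every library.

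PTPRO encodes a receptor tyrosine phosphatase of the podocyte surface. It lies at chr5:57021819-57263395 on the minus strand. CPM was 58.7 at lowest, 79.3 at the median and 131 at highest in CF, 63.9, 78.7 and 102 in HET, and 77.5, 96.4 and 111 in WT. Its log2 fold change was -0.07 (SE 0.123, interval -0.32 to 0.19, edgeR adjusted p = 0.878). The extremes of the whole series, CF2 at the low end and CF6 at the high end, were both CF libraries, as they also were for NPHS1 and WT1.

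SYNPO encodes synaptopodin, an actin-associated protein of the foot process, and lies at chr2:151571264-151634103 on the plus strand. CPM was 25.8 at lowest, 33.1 at the median and 72.2 at highest in CF, 16.8, 27.4 and 36.3 in HET, and 19.2, 29.0 and 41.7 in WT. In 4 CF libraries (CF1, CF7, CF9 and CF11) it was higher than in every non-CF library, and the other 7 lay within the non-CF range. The log2 fold change was 0.49 (SE 0.172, interval 0.13 to 0.84), which did not pass the adjusted limit (edgeR adjusted p = 0.189, unadjusted 0.00901). SYNPO varied most of the 8 members, with an SD of 0.489 in log2 CPM, and its highest library had 4.28 times the level of its lowest.

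CD2AP encodes an adaptor that links the slit diaphragm to actin and is made in many other cell types. It lies at chr7:42218016-42332523 on the plus strand. CPM was 138 at lowest, 162 at the median and 209 at highest in CF, 134, 156 and 184 in HET, and 116, 150 and 175 in WT. For CF against non-CF the log2 fold change was 0.12 (SE 0.0744, interval -0.03 to 0.27, edgeR adjusted p = 0.516). It varied least, with an SD of 0.185 in log2 CPM, and its short transcript of 1926 bases held a median of 79.1% of its TPM.

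PLCE1 encodes phospholipase C epsilon, an enzyme whose loss in people causes early nephrotic syndrome. It lies at chr14:105422628-105764736 on the plus strand. CPM was 55.6 at lowest, 100.1 at the median and 151 at highest in CF, against 62.1, 67.7 and 79.1 in HET and 68.7, 72.3 and 83.7 in WT. The CF libraries spread far more than the others, with 98.3 ± 33.6 CPM (SD, n = 11) against 71.7 ± 6.61 (SD, n = 12). A larger SD of CPM in CF than in non-CF was not particular to PLCE1, since every other member had it too. It was 7.9 against 5.4 for NPHS1 and 23.1 against 15.1 for PTPRO, and nearly equal for CD2AP. The difference in spread was not tested. For PLCE1, 7 CF libraries (CF1 and CF6 to CF11) were above every non-CF library, 3 (CF2, CF3 and CF4) were below every one, and only CF5 fell among them. CF4 (61.9) lay close to the lowest non-CF library (62.1). PAMR1, which is no member, also had 7 CF libraries above and 3 below every non-CF library. For such counts over all 23 libraries, here and for the other members, the share of all genes was not computed. The log2 fold change was 0.45 (SE 0.140, interval 0.17 to 0.74), which did not pass the adjusted limit (edgeR adjusted p = 0.126, unadjusted 0.0033).

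TRPC6 encodes a calcium-permeable channel associated with nephrin. It lies at chr9:32332768-32439184 on the minus strand, and its first bases overlap the lncRNA LOC110255424 on the opposite strand. CPM was 3.13 at lowest, 4.64 at the median and 8.58 at highest in CF, 3.19, 3.88 and 7.81 in HET, and 3.96, 5.34 and 7.19 in WT. Its log2 fold change between CF and non-CF was 0.04 (SE 0.181, interval -0.33 to 0.41, edgeR adjusted p = 0.959).

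**Figure D1:**
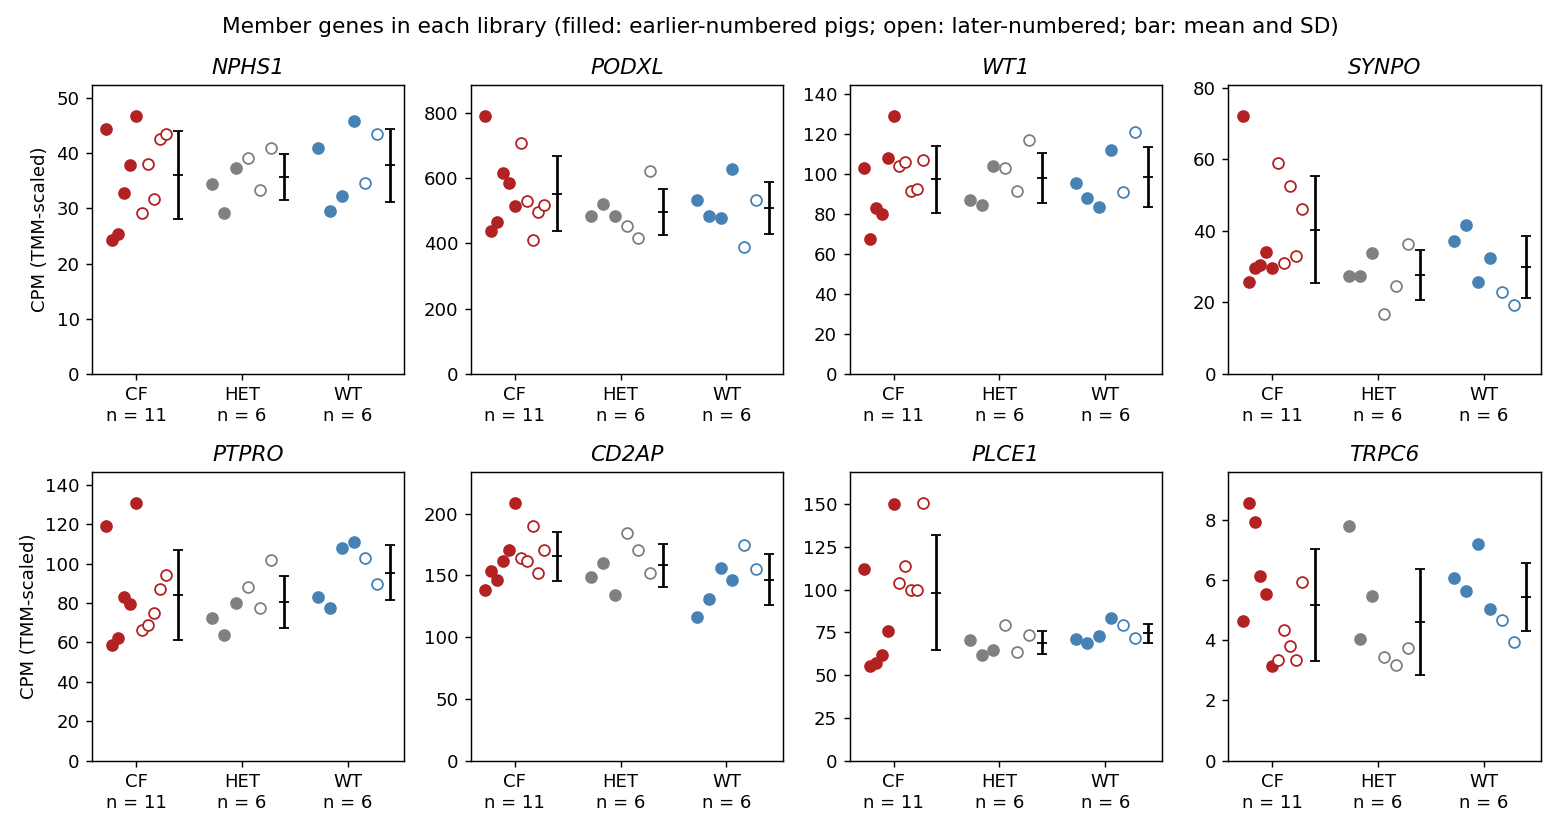
Level of each member gene in CPM (vertical axis, starting at 0) in every library, by genotype label. Filled points are earlier-numbered and open points later-numbered pigs, and the bar at the right of each group is the mean and SD. The 11 CF libraries of PLCE1 reach from 55.6 to 151 CPM, on both sides of the 12 non-CF libraries, which stay between 62.1 and 83.7. The labels overlap for NPHS1, WT1 and PTPRO too.

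No member passed the adjusted limit of 0.05 between CF and non-CF (0 of 8 by edgeR), where 0.349% of the 20921 genes tested did. That is 73 genes, a count that ranged from 17 (without HET21) to 203 (without CF4) when 1 library was left out, with 0 of 8 members each time. At an unadjusted p under 0.05 the count was 2 of 8 members (PLCE1 and SYNPO), against 13.7% of all genes. The median log2 fold change of the 8 members was 0.08, and 5 of 8 were positive. By DESeq2, which called 3.06% of the 16584 genes it tested, 1 member (PLCE1) passed, with a log2 fold change of 0.45 and an adjusted p of 0.0442. The Mann-Whitney U test, named in the study's methods, called 0.214% of genes after adjustment. It was run here in its exact form for genes without ties and with a normal approximation for the rest. It gave PLCE1 an exact unadjusted p of 0.0908 and an adjusted p of 0.497, and SYNPO 0.0512 and 0.407. Over all alternatives the adjusted p of PLCE1 ranged from 0.0142 to 0.729.

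Between single labels no member passed by edgeR either. The count was 0 of 8 for CF against WT (0.336% of all genes passed), 0 of 8 for CF against HET (0% of all genes) and 0 of 8 for HET against WT (0.00467% of all genes, 1 gene, CFTR). DESeq2 called 3.03%, 0.333% and 0.147% of genes in these comparisons and 0 members in each. At an unadjusted edgeR p under 0.05 stood PLCE1 for CF against WT (1 of 8, against 14% of all genes), PLCE1 and SYNPO for CF against HET (2 of 8, against 9.83%), and no member for HET against WT (0 of 8, against 8%). The log2 fold change of PLCE1 was 0.40 (SE 0.175) against WT and 0.51 (SE 0.176) against HET, and that of SYNPO 0.43 (SE 0.216) and 0.54 (SE 0.217). These comparisons share the CF libraries.

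Within the later-numbered pigs, PLCE1 was 99.9 CPM at lowest, 104 at the median and 151 at highest in 5 CF libraries, and 63.3, 73.7 and 79.1 in 5 non-CF libraries. The groups did not overlap there, as for 2.25% of all genes in that direction. The log2 fold change was 0.64 (SE 0.115, edgeR adjusted p = 0.0142), in a fit where 2.27% of genes passed. Within the earlier-numbered pigs it was 0.28 (SE 0.200, edgeR adjusted p = 0.729), with CF libraries on both sides of the non-CF ones and 0% of all genes passing. For SYNPO the later-numbered pigs gave 0.89 (SE 0.217, edgeR adjusted p = 0.0509) and the earlier-numbered 0.20 (SE 0.205, edgeR adjusted p = 0.831). The difference between sets was tested by the interaction of label and set. It was 0.36 (SE 0.267, edgeR adjusted p = 0.691) for PLCE1 and 0.68 (SE 0.329, edgeR adjusted p = 0.489) for SYNPO, and no member passed (0 of 8), where 0.0191% of genes did. At an unadjusted edgeR p under 0.05 the interaction count was 1 of 8 (SYNPO), against 10.1% of all genes.

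**Figure D2:**
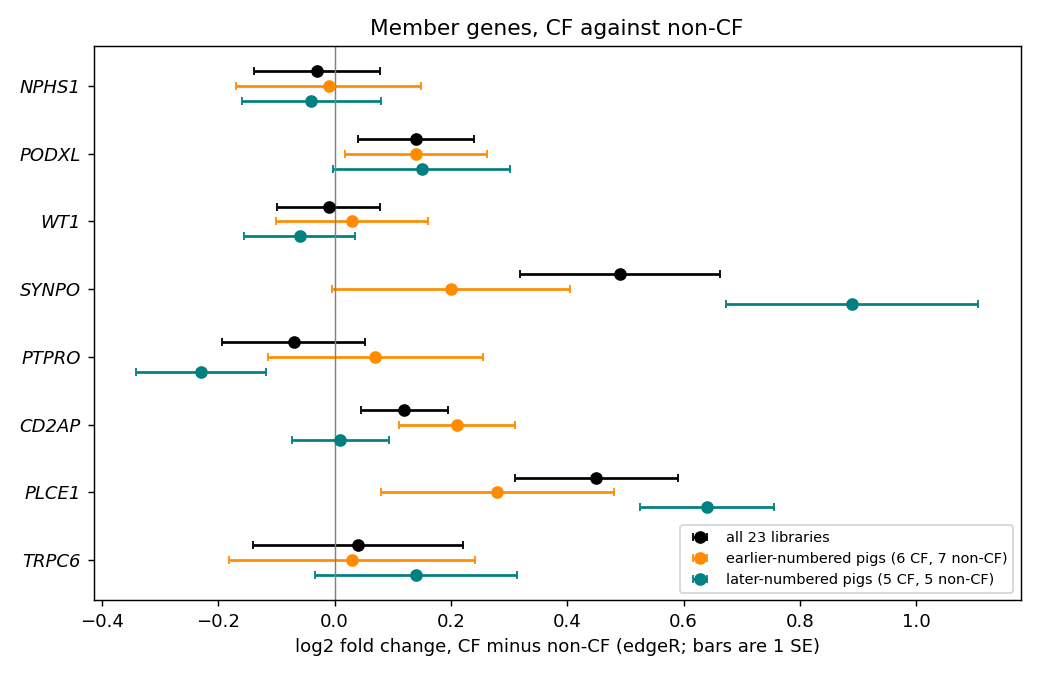
Log2 fold change of CF against non-CF for each member gene (horizontal axis, edgeR, bars of 1 SE) over all 23 libraries and within the earlier-numbered and later-numbered pigs. PLCE1 and SYNPO lie to the right of 0 in all 3 fits, with the later-numbered pigs at 0.64 and 0.89.

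Between the number sets, 1 of 8 members passed by edgeR, TRPC6, against 9.69% of the 21434 genes tested, a share near the background. At an unadjusted p under 0.05 the count was also 1 of 8, against 26.4% of genes, and DESeq2, which called 12.7% of genes, called TRPC6 too. TRPC6 was 3.13 CPM at lowest, 5.65 at the median and 8.58 at highest in the earlier-numbered pigs and 3.19, 3.77 and 5.95 in the later-numbered. The sets overlapped. Its log2 fold change, later against earlier with the label in the model, was -0.57 (SE 0.148, edgeR adjusted p = 0.019). The other 7 members had log2 fold changes between -0.09 (PODXL) and 0.25 (PLCE1), none past the limit. The sets were noticed on these same data, so the test is not independent of that choice.

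The members were next compared with each other across libraries, where a signal shared by podocyte genes would appear as a common rise and fall. For this, log2 CPM was correlated with that of NPHS1, the member most particular to podocytes in kidney, over all 23 libraries. WT1 gave r = 0.80 (rho = 0.77), the highest r of the 20920 other genes tested. PTPRO gave r = 0.76 (rho = 0.78), ranked 3, and PLCE1 r = 0.59 (rho = 0.63), ranked 67. PODXL gave r = 0.37 (rho = 0.42), SYNPO r = 0.06 (rho = 0.11), CD2AP r = 0.05 (rho = -0.02) and TRPC6 r = -0.42 (rho = -0.34). So 3 of 7 members had r above 0.5, as had 1.02% of all genes. The closest members therefore were a transcription factor and a surface phosphatase, while 4 of the 7 followed nephrin weakly or inversely.

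The unadjusted permutation p of r (two-sided, 100000 resamples) was 1e-05 for WT1, the smallest these resamples can give, 4e-05 for PTPRO, 0.00312 for PLCE1, 0.0462 for TRPC6, 0.0863 for PODXL, 0.773 for SYNPO and 0.818 for CD2AP. That of rho was 5e-05 for WT1, 4e-05 for PTPRO, 0.00197 for PLCE1, 0.0474 for PODXL, 0.115 for TRPC6, 0.6 for SYNPO and 0.926 for CD2AP. Adjusted over all genes, no member and no gene passed (0 of 7 members, 0% of 20920 genes, permutation test). Before adjustment 2.93% of genes had a p under 0.05 with positive r and 2.68% with negative r, and for rho the shares were 3.66% and 2.9%. Of the members, WT1, PTPRO and PLCE1 were among the positive and TRPC6 among the negative by r, and WT1, PTPRO, PLCE1 and PODXL among the positive by rho. The adjusted permutation p of WT1 and PTPRO was 0.209 each, and with 1000000 resamples, added after the data were seen, 0.0837 and 0.13. On the scale of log2(TPM + 0.1), 4 of 7 members passed (PODXL, WT1, PTPRO and PLCE1), but so did 24.1% of all genes, 41.4% having a positive r and 0.411% a negative r with unadjusted p under 0.05.

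Within the number sets the values differed. In the earlier-numbered pigs r with NPHS1 was 0.88 for WT1, 0.83 for PTPRO, 0.79 for PLCE1, 0.65 for PODXL, 0.45 for SYNPO, 0.09 for CD2AP and -0.64 for TRPC6 (13 libraries). In the later-numbered pigs it was 0.51 for WT1, 0.60 for PTPRO, 0.11 for PLCE1, 0.06 for PODXL, -0.40 for SYNPO, -0.49 for CD2AP and 0.37 for TRPC6 (10 libraries). The r of WT1, PTPRO, PLCE1 and PODXL was thus positive in both sets, near 0 in the later-numbered pigs for PLCE1 and PODXL, and that of SYNPO, CD2AP and TRPC6 changed sign. The share of all genes with r above 0.5 was 4.82% in the earlier-numbered and 11.3% in the later-numbered pigs. Within each set no gene passed the adjusted permutation test, and the difference between the sets was not tested. Without the 2 libraries farthest from the median of NPHS1 (CF2 and CF3), r was 0.72 for WT1, 0.67 for PTPRO, 0.47 for PLCE1, 0.27 for PODXL, -0.04 for SYNPO, -0.03 for CD2AP and -0.13 for TRPC6. The relation of TRPC6 with NPHS1 rested on those libraries. With the mean of each label and set removed, r was 0.80 for WT1, 0.80 for PTPRO and 0.76 for PLCE1.

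**Figure D3:**
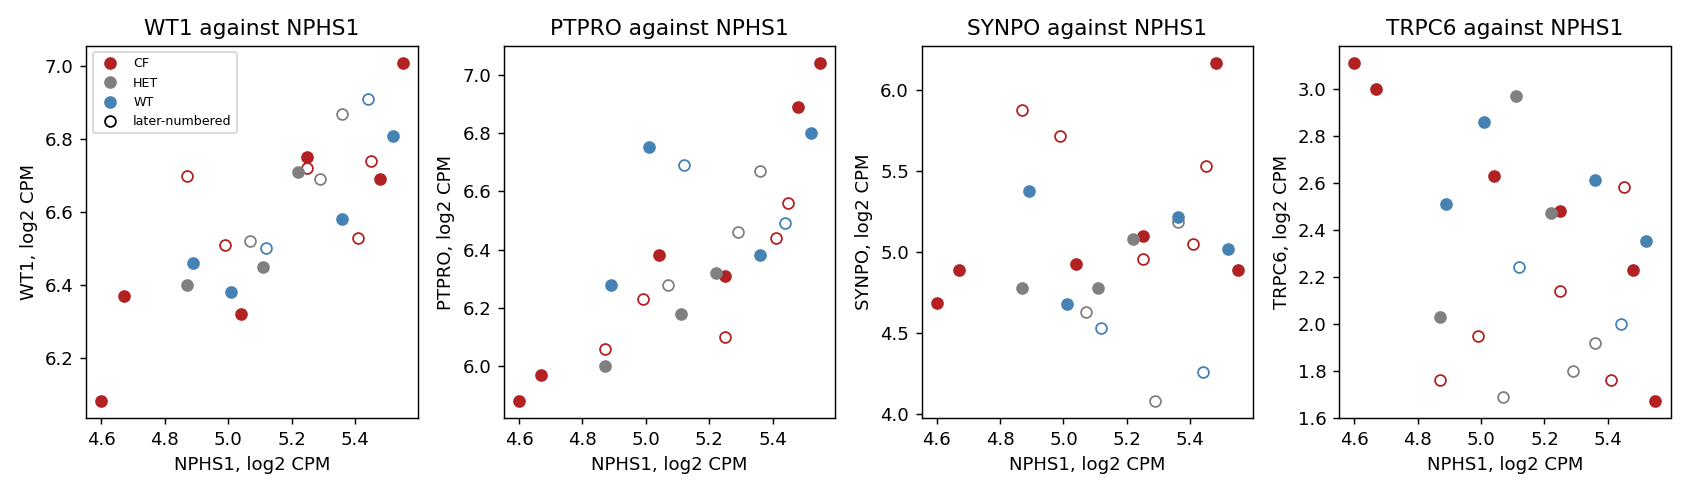
Log2 CPM of WT1, PTPRO, SYNPO and TRPC6 (vertical axes) against log2 CPM of NPHS1 (horizontal axes), 1 point per library, coloured by label and open for later-numbered pigs. WT1 and PTPRO climb with NPHS1 (r = 0.80 and 0.76), SYNPO shows no slope (r = 0.06), and TRPC6 falls with it (r = -0.42).

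Over all 28 pairs of members the median r was 0.185, with 6 pairs above 0.5 (21.4%), while 3.98% of the pairings of a member with any other gene were above 0.5. The pairs ran from -0.58 (WT1 with TRPC6) to 0.80 (NPHS1 with WT1). SYNPO had its highest r with PODXL (0.56, with 0.74 in the earlier-numbered and 0.43 in the later-numbered pigs) and then with PLCE1 (0.45, with 0.41 and 0.63). PODXL with WT1 was 0.41 (0.44 and 0.68). WT1 with PTPRO was 0.58 (0.72 and 0.18). The median pair was 0.40 in the earlier-numbered and 0.095 in the later-numbered pigs. Pairs share genes and libraries, so these are descriptions.

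The mean of the 8 centred levels described each library by a single value. It was highest in CF1 (0.36), CF11 (0.30) and CF6 (0.25) and lowest in CF2 (-0.24), HET20 (-0.23) and HET14 (-0.22), all on the log2 scale. In CF2 and CF3, 1 of 8 members lay above its own mean, TRPC6 in each. In CF11, 7 of 8 did. Removing the mean of the other 7 members lowered the SD of PLCE1 from 0.408 to 0.338 and of NPHS1 from 0.270 to 0.228. It also lowered that of PTPRO (0.308 to 0.269), PODXL (0.249 to 0.220), WT1 (0.217 to 0.195) and SYNPO (0.489 to 0.464). It raised that of TRPC6 from 0.446 to 0.566 and of CD2AP from 0.185 to 0.270. With the mean of the 8, of which each member is itself a part, r in the later-numbered pigs alone was 0.84 for PLCE1, 0.71 for SYNPO, 0.65 for TRPC6, 0.51 for PODXL, 0.35 for WT1, 0.24 for NPHS1, 0.05 for PTPRO and -0.18 for CD2AP. In the earlier-numbered pigs these were, in the same order, 0.88, 0.65, -0.57, 0.75, 0.79, 0.89, 0.90 and 0.17.

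**Figure D4:**
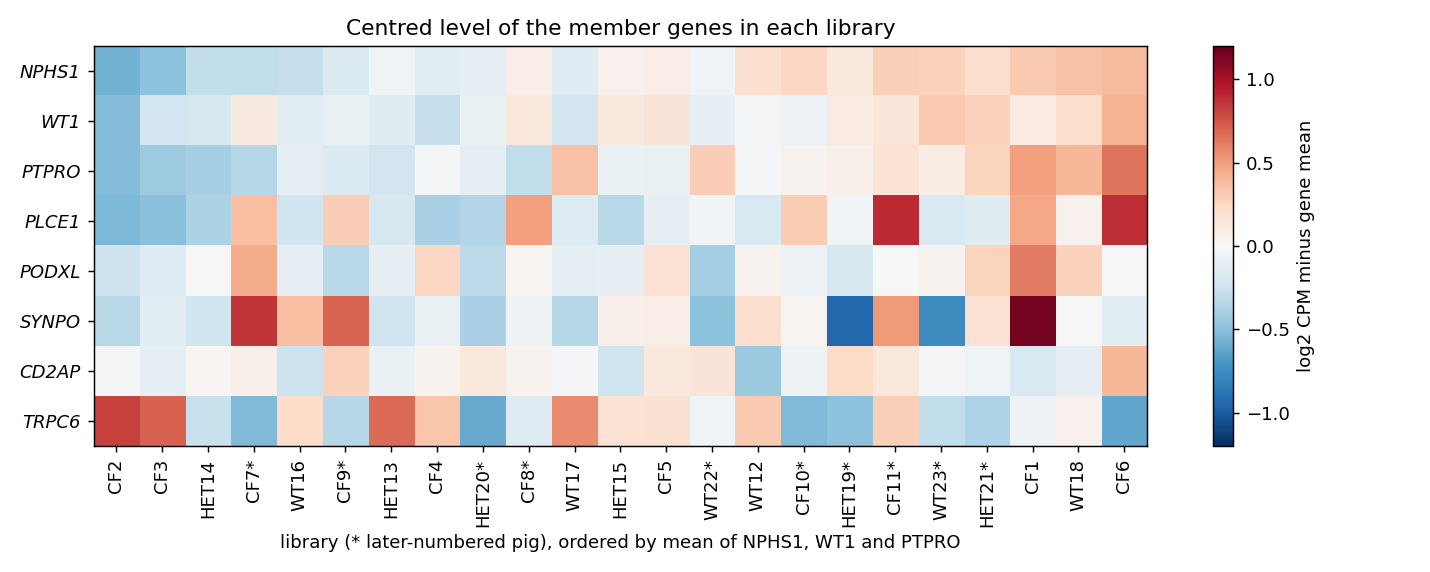
Log2 CPM minus the gene's mean (colour) for the 8 member genes (rows) in the 23 libraries (columns), ordered by the mean of NPHS1, WT1 and PTPRO, with an asterisk on later-numbered pigs. NPHS1, WT1 and PTPRO pass from blue to red together because they set the order, PLCE1 has 7 and SYNPO 4 CF libraries above every non-CF library, and TRPC6 is highest in CF2 and CF3 at the low end.

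The 44 other podocyte genes form a wider list. Of these, 43 passed the filter (KIRREL1 had no match by symbol). The list is not limited to genes particular to podocytes. Its median levels reached 219 TPM for ENPEP and 158 for EZR, against 8.14 for NPHS1, and the part of other cells in its values was not tested. None of the 43 passed between CF and non-CF by edgeR (0.349% of all genes did), 7 had an unadjusted p under 0.05 (13.7% of all genes did), and the median log2 fold change was 0.05, against 0 over all genes. DDN, which encodes dendrin, a partner of nephrin and CD2AP, had the smallest p. It was 58.8 ± 26.6 CPM in CF (SD, n = 11) and 32.7 ± 5.19 in non-CF (SD, n = 12), with a log2 fold change of 0.84 (edgeR adjusted p = 0.0657). The transcription factors FOXC1 (0.27) and LMX1B (0.30) followed, with edgeR adjusted p of 0.111 and 0.167.

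With NPHS1, 5 of these 43 genes had r above 0.5 (11.6%, against 1.02% of all genes). PLA2R1, a podocyte surface receptor, gave r = 0.77 and ranked 2, with 0.80 in the earlier-numbered and 0.76 in the later-numbered pigs. CRB2, a polarity protein, gave 0.67, the scaffold MAGI2 0.58, LMX1B 0.54 and the basement membrane collagen COL4A3 0.52. In the earlier-numbered pigs these were 0.84 for CRB2, 0.61 for MAGI2, 0.75 for LMX1B and 0.79 for COL4A3, and in the later-numbered pigs 0.28, 0.78, 0.08 and -0.13. The mean centred level of the 43 genes had r = 0.72 with that of the 8 members, 0.81 in the earlier-numbered and 0.51 in the later-numbered pigs. The mean over all genes gave -0.03, -0.37 and 0.48, so in the later-numbered pigs the podocyte list was close to all genes. With the mean of NPHS1, WT1 and PTPRO alone the r of the 43 genes was 0.52, 0.69 and -0.04.

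Lists of other cell types were set beside the members. The r of their mean level with that of the 8 members is given over all libraries, then in the earlier-numbered and the later-numbered pigs. It was 0.56, 0.88 and -0.06 for parietal epithelium and early nephron (9 of 10 genes tested), above the other podocyte genes (0.81) in the earlier-numbered pigs. Nephron progenitors (10 genes) gave 0.49, 0.63 and 0.22, mesangium and pericytes (12) 0.45, 0.54 and 0.26, and immune cells (7 of 8) 0.14, 0.61 and -0.16. Endothelium (15) gave -0.02, -0.13 and 0.14, and erythroid cells (8) -0.04, 0.14 and -0.57. The proximal tubule (15) gave -0.07, 0 and -0.25, the collecting duct (9) -0.28, -0.27 and -0.34, and the distal tubule with Henle's loop (8) -0.33, -0.19 and -0.59. Between CF and non-CF none of the genes on these lists passed by edgeR. In the list of the distal tubule with Henle's loop, 1 of 8 log2 fold changes was positive and the median was -0.16. There 3 of 8 genes had an unadjusted edgeR p under 0.05, as had 13.7% of all genes. So had 3 of 9 of the parietal and early nephron list, which went both ways. JAG1 (0.19) and HEY1 (0.30) were higher and DLL1 (-0.23) lower in CF. Those of the distal list were CALB1 (-1.40, edgeR adjusted p = 0.0636), SLC12A3 (-0.64, 0.0843) and SLC12A1 (-0.28, 0.0966), each with 0 of 11 CF libraries above the non-CF median. Summed CPM of that list was 1400 to 2140 in CF, 1420 to 2650 in HET and 1620 to 2400 in WT. Summed CPM of the nephron progenitor genes was 102 to 151 in CF, 106 to 136 in HET and 114 to 139 in WT, and that of the proximal tubule genes 8500 to 14600, 8620 to 11800 and 7250 to 10500. The nephron progenitor marker SIX2 was at a median of 0.696 TPM. The part of these cells in the members' values was not tested.

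Between the number sets, 6 of the 43 other podocyte genes passed by edgeR, 2 higher and 4 lower in the later-numbered pigs, beside 9.69% of all genes. KIRREL2 (0.85) and ENPEP (0.37) were higher, and FAT1 (-0.24), LAMB2 (-0.27), ITGA3 (-0.41) and TJP1 (-0.21) lower, on the log2 scale. Of 15 endothelial genes 0 passed as higher and 2 as lower, VWF (-1.11) and CDH5 (-0.39). Of 15 proximal tubule genes 1 passed as higher, SLC22A6 (1.37), and 1 as lower, SLC5A1 (-0.46). PVALB (0.93) and TMEM52B (0.26) of the 8 distal tubule genes were higher, and GATA3 (-0.38) of the mesangial and AQP2 (-0.62) of the collecting duct genes lower. These moved with the same sets as TRPC6, and their part in its difference was not tested.

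The 10 genes that are no members and followed the mean level of the 8 members most closely over the 23 libraries were CADM1 (r = 0.88), COL9A2 (0.80), CEP170 (0.80), SOX9 (0.79), COL9A3 (0.79), RIPOR2 (0.79), ROBO1 (0.78), ZBTB8A (0.77), LOC100522143 (0.77) and PAMR1 (0.77). CADM1, an adhesion molecule, had r = 0.89 in the earlier-numbered and 0.89 in the later-numbered pigs. All 10 had r of at least 0.58 within each set. They were picked for this pattern, so the values describe it and carry no test.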

How the data were processed

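Total RNA from kidney cortex, 1 library for each of 23 newborn pigs, was depleted of ribosomal RNA and sequenced. The authors pseudoaligned reads to transcripts of Sscrofa11.1 with kallisto, per the labels, and deposited estimated counts and TPM per transcript. The 77689 transcripts were added up by symbol into 26687 genes, and sums were rounded because 64.0% of transcript estimates had a fractional part. edgeR 4.0.16 (TMM, filterByExpr, quasi-likelihood test, Benjamini-Hochberg over all genes, limit 0.05) compared 11 CF with 12 non-CF libraries, the 3 labels in one fit, and the number sets with the label as a term. Log2 CPM used a prior count of 2. Correlations with NPHS1 used two-sided permutation tests (100000 resamples). Alternatives were DESeq2 1.42.0, the Mann-Whitney U test (exact for genes without ties), other normalizations and filters, the number sets apart, TPM with a pseudocount of 0.1, and each library left out. Steps were tested on simulated data. Nothing in the labels pairs or batches the pigs, and p-values measure the spread between pigs. The paper compared littermates in its metabolite work, but the labels give no litter for these 23 pigs. The tests therefore treat the pigs as independent. Counting errors cover counting only.

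The members and gene lists were chosen with earlier results of these data known. Besides members and CFTR, genes were named if among the 10 most like the members' mean, among the 3 of a list with smallest p or highest r with that mean, or past the adjusted limit; PLA2R1, MAGI2 and COL4A3, on the podocyte list from the start, fall outside this rule and were named after their r with NPHS1 was seen. Promoters and positions come from the RefSeq annotation of the same build. Motif letters were chosen from general knowledge of these factors. Items withheld for evaluation are not reported here and were left out of the lists.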

Additional observations from a re-analysis of the deposited data

How the results depend on the processing

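The count of members passing between CF and non-CF was 0 by edgeR, where 0.349% of all genes passed. It was 1 (PLCE1) with DESeq2 (3.06% of all genes) and in the later-numbered pigs alone (2.27%). The count of members that covary with NPHS1 went from 0 to 4 on the log2 TPM scale, and the share of all genes from 0% to 24.1%. The cause was not tested. Leaving out each library in turn gave 0 members between the labels, 1 (TRPC6) between the number sets and 0 with NPHS1. The number of all genes called then ranged from 20 (without WT12) to 187 (without WT23) for CF against WT, where it was 72, and from 1142 (without WT22) to 2469 (without CF1) between the number sets, where it was 2077. Signs changed for members near 0: in the earlier-numbered pigs alone WT1 was 0.03 and PTPRO 0.07 in log2 fold change, with WT alone as control TRPC6 was -0.07, and between HET and WT the value of WT1 was 0.00361 by DESeq2 and 0.00339 with median-of-ratios scaling. With NPHS1, CD2AP gave rho = -0.02, and in the later-numbered pigs SYNPO gave -0.40, CD2AP -0.49 and TRPC6 0.37. Leaving out libraries moved the log2 fold change of CF against non-CF over 0.37 to 0.52 for PLCE1 and 0.37 to 0.55 for SYNPO. Leaving out 1 library at a time also changed the sign of small values. CF against non-CF ranged from -0.08 to 0.02 for NPHS1, -0.07 to 0.03 for WT1 and -0.06 to 0.12 for TRPC6. CF against WT ranged from -0.06 to 0.05 for WT1 and -0.17 to 0.02 for TRPC6. CF against HET ranged from -0.05 to 0.06 for NPHS1, -0.06 to 0.04 for WT1 and -0.02 to 0.14 for PTPRO. HET against WT ranged from -0.10 to 0.04 for PODXL, -0.06 to 0.07 for WT1 and -0.20 to 0.02 for SYNPO. The number sets ranged from -0.16 to 0.05 for SYNPO and -0.05 to 0.07 for PTPRO. The r with NPHS1 ranged from -0.08 to 0.17 for SYNPO and -0.12 to 0.16 for CD2AP. No paired analysis was possible because the labels name no litter.

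Only 2 WT libraries were later-numbered, and within sets WT was pooled with HET and not compared alone. TRPC6 rests on few counts.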
